A study of Mus musculus with 18 samples.

Results

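The genes followed here are 7 markers of GABAergic neurons and interneurons in mouse thalamus RNA-seq libraries: Gad1, Gad2 and Slc32a1, which make and store GABA, and Pvalb, Sst, Vip and Npy, which mark classes of interneurons. They were taken as the rows with those symbols in the deposited count table, 7 of 50559 genes, and 7 of 7 were among the 18452 genes that passed the filter on low counts. The 18 libraries came from wild-type animals in 3 groups of 6. The intervene group was given Coll IV and remodelin, a NAT10 inhibitor, the model group Coll IV without remodelin, and the control group saline. The labels do not expand Coll IV and give no age, sex, time or batch. Replicates are numbered 1 to 6 in each group, and libraries 1 to 3 and 4 to 6 of a group are described apart below, because they differ. The labels name no such division, which was seen in the values.

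GABA, the main inhibitory transmitter of the brain, is made from glutamate by the decarboxylases of Gad1 and Gad2 and loaded into vesicles by the transporter of Slc32a1. In the rodent thalamus most GABAergic cell bodies lie in the reticular nucleus, a sheet of inhibitory neurons around the relay nuclei, many of which make parvalbumin (Pvalb) and somatostatin (Sst). Vasoactive intestinal peptide (Vip) and neuropeptide Y (Npy) are best known from interneurons of cortex, hippocampus and striatum, and from parts of the hypothalamus. In bulk tissue, fewer cells of a type and less RNA per cell cannot be told apart.

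The promoters of Gad2, Slc32a1, Vip and Sst, the 4 genes called in intervene against control within libraries 4 to 6, are shown, so that Gad2 and Slc32a1, which varied together, can be set beside Vip and Sst. Each is the 300 bases from 250 before to 50 after a transcription start in RefSeq on GRCm38.p6, 5′ to 3′ on the gene's strand, and capitals mark a TGACGTCA (the cAMP response element) or a TATAAA (the TATA box) on either strand. The regions are chr2:22622077-22622376 (plus strand) for Gad2, chr2:158610508-158610807 (plus strand) for Slc32a1, chr10:5638968-5639267 (plus strand) for Vip and chr16:23890795-23891094 (minus strand) for Sst. The authors' reads were referred to another build, GRCm39, so these positions serve only to identify the sequences.
Gad2: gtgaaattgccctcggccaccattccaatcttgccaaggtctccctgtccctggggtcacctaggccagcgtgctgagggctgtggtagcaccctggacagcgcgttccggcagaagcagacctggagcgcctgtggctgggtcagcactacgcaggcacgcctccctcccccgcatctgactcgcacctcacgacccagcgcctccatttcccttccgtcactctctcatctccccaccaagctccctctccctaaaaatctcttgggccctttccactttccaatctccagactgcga
Slc32a1: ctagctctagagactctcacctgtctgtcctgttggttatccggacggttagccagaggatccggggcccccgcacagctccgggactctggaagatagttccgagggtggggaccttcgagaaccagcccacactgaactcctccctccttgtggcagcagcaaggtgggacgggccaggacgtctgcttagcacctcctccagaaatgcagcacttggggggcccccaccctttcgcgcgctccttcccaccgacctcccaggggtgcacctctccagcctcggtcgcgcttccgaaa
Vip: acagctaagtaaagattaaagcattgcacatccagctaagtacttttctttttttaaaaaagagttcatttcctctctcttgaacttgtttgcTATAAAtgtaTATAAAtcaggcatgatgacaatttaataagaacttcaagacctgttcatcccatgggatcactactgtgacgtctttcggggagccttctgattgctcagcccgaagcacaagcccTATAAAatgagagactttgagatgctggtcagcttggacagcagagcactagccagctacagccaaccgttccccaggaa
Sst: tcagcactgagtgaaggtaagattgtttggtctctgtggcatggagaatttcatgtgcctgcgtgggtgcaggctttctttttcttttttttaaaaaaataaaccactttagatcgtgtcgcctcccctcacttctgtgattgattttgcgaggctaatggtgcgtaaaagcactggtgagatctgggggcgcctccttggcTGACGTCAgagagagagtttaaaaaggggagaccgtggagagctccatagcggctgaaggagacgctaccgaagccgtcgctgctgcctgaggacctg
The Sst promoter holds 1 TGACGTCA, which starts 48 bases before the transcription start. This motif occurs in 1.79% of the 32851 mouse promoters in the table. The Vip promoter holds 3 TATAAA, starting 157, 147 and 30 bases before the start, against 13.6% of all promoters with at least 1. Gad1 holds 1 TATAAA on its minus strand, while Gad2, Slc32a1, Npy and both Pvalb promoters hold neither motif. TAATTA, the core bound by many homeodomain proteins, is in none of the 8 promoters of the 7 genes and in 5.29% of all. CANNTG, the E-box, occurs once each in Gad1, Gad2 and Sst, at 2 places in Slc32a1 and in 1 of the 2 Pvalb promoters, and not in Vip or Npy, against 72.3% of all promoters. No match overlapped another. GC content was 61.3% for Gad2, 63.3% for Slc32a1 and 68.0% for Npy, and 41.7% for Vip and 50.3% for Sst, against a median of 52.7% over all promoters. A match describes the letters and not a bound site.

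Libraries held 28481225 to 118461420 counts, with control replicate 1 the deepest. The members' counts ran from 298 for Vip in its lowest library to 59715 for Gad1 in its highest, so that counting error was small beside the spread over all 18 libraries. Within a division the spread could be narrow, as for Slc32a1 in controls 4 to 6, and it was not set against counting error there. Libraries 4 to 6 stood apart from 1 to 3 in markers of brain regions. The summed level of 9 thalamic relay neuron markers lay at 55.7 to 57.9 CPM (counts scaled by library size and TMM factor) in controls 4 to 6, against 417 to 442 CPM in controls 1 to 3. It lay at 71.0 to 110.2 CPM in model libraries 4 to 6 and 258 to 469 CPM in model libraries 1 to 3, and at 216 to 300.0 CPM in intervene libraries 4 to 6 and 346 to 369 CPM in intervene libraries 1 to 3. The labelled tissue was thus met least by markers in control and model libraries 4 to 6, although no thalamic marker was at 0 in all libraries of such a group. Members are therefore given for all libraries and for libraries 4 to 6 and 1 to 3 separately.

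On the scale of deposited FPKM, which divides by gene length, Sst, Npy and Pvalb stood above the genes that make and store GABA, and Vip below them on average. Sst had the highest level at 166.6 ± 37.5 FPKM (SD, n = 18), followed by Npy at 96.1 ± 49.0 and Pvalb at 85.1 ± 25.1 FPKM. Gad1 averaged 31.7 ± 5.10, Slc32a1 13.8 ± 3.76, Gad2 9.82 ± 3.72 and Vip 8.73 ± 5.22 FPKM. Sst ranked first in 17 libraries and Pvalb in 1, Npy took place 2 or 3 in every library, and Vip moved between places 5 and 7. Npy and Pvalb were thus not apart beyond their spread, and neither were Gad2 and Vip. This order rests on the lengths behind the deposited FPKM. They were 11144 bases for Gad1, 8130 for Slc32a1 and 17264 for Gad2, against 1936 for Sst, 1132 for Npy and 2086 for Pvalb. In mean CPM, without division by length, Gad1 was highest at 353.3, followed by Sst at 324.5, Pvalb at 178.0 and Gad2 at 169.3. Slc32a1 had 112.2 and Npy 110.0 CPM.

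**Figure D1:**
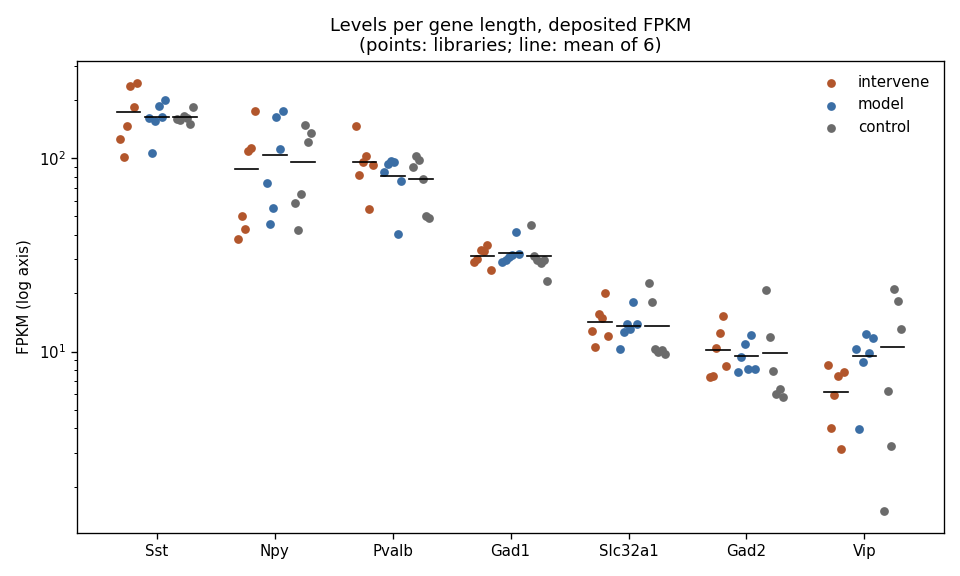
FPKM of the 7 genes on a log axis, ordered by mean level, with 1 point per library, intervene, model and control from left to right, and a line at the mean of 6 libraries; points are moved sideways only to be seen. Sst lies highest in nearly every library, and the points of Vip and Npy are the most spread.

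The members differed in how constant they were. The highest library stood 1.86-fold over the lowest for Gad1, 2.24-fold for Slc32a1, 2.83-fold for Sst, 3.42-fold for Gad2 and 3.93-fold for Pvalb. For Npy this ratio was 4.89-fold and for Vip 14.2-fold. Gad1, the enzyme responsible for most GABA synthesis, was the steadiest, with a coefficient of variation of 14.9% over the 18 libraries, against 59.1% for Vip.

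**Figure D2:**
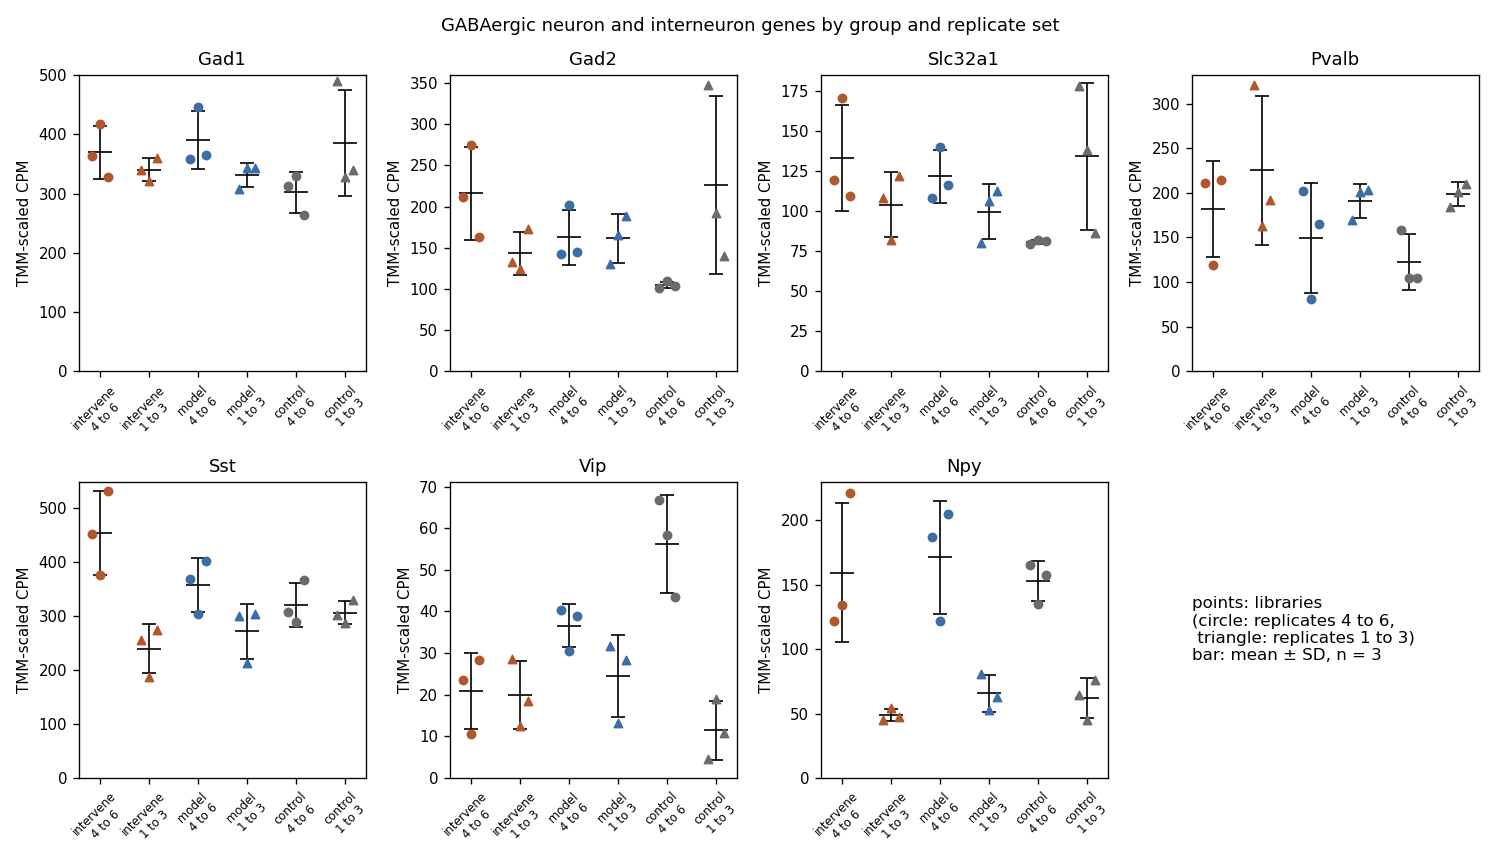
TMM-scaled CPM of the 7 genes, with 1 point per library, circles for replicates 4 to 6 and triangles for 1 to 3, in intervene, model and control order; bars show mean ± SD of 3 libraries. Npy is higher in libraries 4 to 6 in each group, and Gad2 and Slc32a1 are lowest and Vip highest in controls 4 to 6.

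Over all libraries of a group, none of the 7 genes differed between the groups. In intervene libraries Gad1 averaged 355 ± 34.8 CPM, in model 361 ± 46.5 and in control 344 ± 76.3 (SD, n = 6 each). Gad2 ranged from 124 to 275 CPM with a median of 168 in intervene, from 130.0 to 202 with a median of 156 in model, and from 102 to 348 with a median of 125 in control libraries. For each of the 7 genes the ranges of the groups overlapped, as they did for all but 0.13% of genes in model against control, 0.211% in intervene against model and 0.488% in intervene against control. edgeR's quasi-likelihood test called 0 of 7 members in model against control, in intervene against model and in intervene against control, where the share of all 18452 genes called was 0% in each. At an unadjusted p under 0.05 the members were also 0, while 310, 531 and 1551 genes passed. DESeq2 called 2, 2 and 73 genes, limma-voom 0 in each, and neither called a member.

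Most fold changes over all libraries were smaller than their standard errors, and none passed. For intervene against model the log2 fold changes were -0.02 ± 0.12 (SE) for Gad1, 0.15 ± 0.28 for Gad2 and 0.10 ± 0.21 for Slc32a1. The largest was that of Vip, -0.58 ± 0.49, against model and -0.73 ± 0.49 against control, with an adjusted p over 0.05 in both. Pvalb followed, at 0.26 ± 0.25 against model and 0.34 ± 0.25 against control, also with an edgeR adjusted p over 0.05 in both. These changes of Vip and Pvalb exceeded their standard errors. For model against control they lay between -0.15 ± 0.48 for Vip and 0.14 ± 0.45 for Npy. Model against control and intervene against control share the control libraries. The labels do not say that each library is a separate animal, so p-values measure the spread between these libraries.

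**Figure D3:**
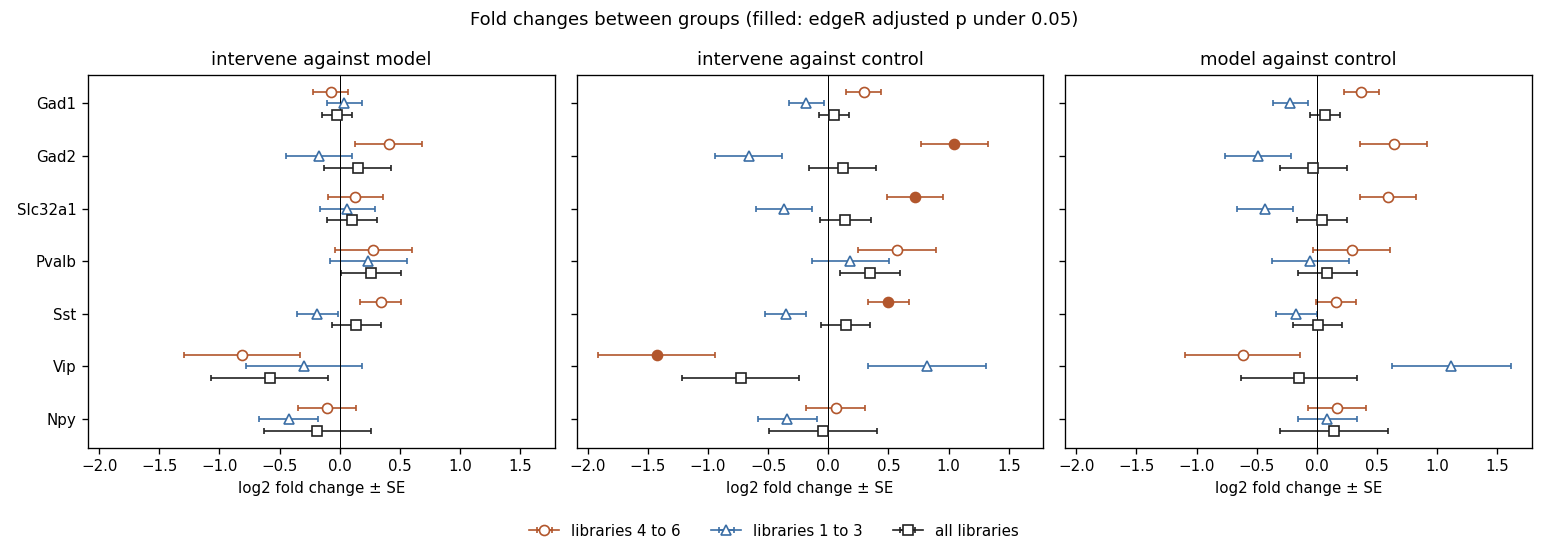
Log2 fold changes with standard errors of the 7 genes in intervene against model, intervene against control and model against control, for libraries 4 to 6, libraries 1 to 3 and all libraries; filled points have an edgeR adjusted p under 0.05. The 4 filled points are Gad2, Slc32a1, Sst and Vip in intervene against control within libraries 4 to 6.

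Among controls, the members differed between the libraries numbered 4 to 6 and 1 to 3. Gad2, the decarboxylase concentrated at terminals, had 102, 109 and 103 CPM in controls 4 to 6, against 348, 192 and 140.3 CPM in controls 1 to 3. Slc32a1, the vesicular transporter, had 79.5, 81.9 and 81.0 CPM in controls 4 to 6, against 178, 138 and 86.2 CPM in controls 1 to 3. For both genes all 3 controls 4 to 6 lay below the other 3 and close to each other. The log2 fold change of 4 to 6 against 1 to 3 was -1.12 ± 0.28 for Gad2 and -0.73 ± 0.23 for Slc32a1, with adjusted p = 0.00628 and 0.0208 by edgeR. Gad1 did not pass, at 302 ± 34.2 CPM in controls 4 to 6 and 386 ± 90.0 CPM in controls 1 to 3 (SD, n = 3 each; log2 fold change -0.35 ± 0.14, adjusted p = 0.0609).

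Vip and Npy went the other way in controls. Vip had 66.8, 58.4 and 43.4 CPM in controls 4 to 6, against 4.69, 18.9 and 10.7 CPM in controls 1 to 3. Npy had 165, 135 and 158 CPM in controls 4 to 6, against 64.8, 45.3 and 75.8 CPM in controls 1 to 3. The ranges of both peptides were apart, and the log2 fold changes were 2.32 ± 0.50 for Vip and 1.30 ± 0.25 for Npy, with adjusted p = 0.00296 and 0.00100 by edgeR. Pvalb, a calcium-binding protein of fast-spiking neurons, averaged 122 ± 31.5 CPM in controls 4 to 6 and 198 ± 13.5 CPM in controls 1 to 3 without passing the test (log2 fold change -0.70 ± 0.32, adjusted p = 0.102). Sst averaged 320.3 ± 40.8 CPM in controls 4 to 6 and 306 ± 21.2 CPM in controls 1 to 3, and its log2 fold change was 0.07 ± 0.17. The calls in controls thus numbered 4 of 7 members, 2 higher and 2 lower, where 38.2% of all genes were called, 18.6% higher and 19.6% lower, and 5 of 7 members did not overlap, where 52% of all genes did not. Slc32a1 lost its call when control replicate 1, 2, 4, 5 or 6 was left out, and Gad1 passed without control replicate 2 or 3.

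In model libraries the same division gave a call for Npy alone. Npy had 187, 122 and 205 CPM in model libraries 4 to 6, against 81.0, 53.2 and 62.9 CPM in model libraries 1 to 3. The log2 fold change was 1.38 ± 0.25 with an edgeR adjusted p of 0.00270, and 1 of 7 members was called higher where 8.91% of all genes were (18.7% in either direction, 9.78% lower). Gad2 was level, at 163 ± 33.4 CPM in model libraries 4 to 6 and 162 ± 29.8 CPM in model libraries 1 to 3 (log2 fold change 0.01 ± 0.28). Gad1 ranges did not overlap, at 359 to 447 CPM in model libraries 4 to 6 and 308 to 343 CPM in model libraries 1 to 3, without passing the test (log2 fold change 0.24 ± 0.14, adjusted p = 0.260). Gad1 and Npy were the 2 members without overlap, against 37.9% of all genes.

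In intervene libraries both Sst and Npy were higher in libraries 4 to 6. Sst, the peptide of interneurons that target dendrites, had 451, 376 and 531 CPM in intervene libraries 4 to 6, against 256, 188 and 273 CPM in intervene libraries 1 to 3. Npy had 122, 135 and 221 CPM in intervene libraries 4 to 6, against 45.2, 54.6 and 47.1 CPM in intervene libraries 1 to 3. The ranges of both genes were apart. The log2 fold changes were 0.92 ± 0.17 for Sst and 1.70 ± 0.25 for Npy, with edgeR adjusted p = 0.00387 and 0.00217. These 2 of 7 higher calls stood beside 7.76% of all genes called higher (14.9% in either direction, 7.16% lower), and 2 of 7 without overlap beside 31.6%. Npy was the member called in the same direction in each of the 3 groups, and it kept each call in 25 of 25 alternatives. The share of all genes called higher in all 3 groups was not counted, so this cannot be called particular to Npy.

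**Figure D4:**
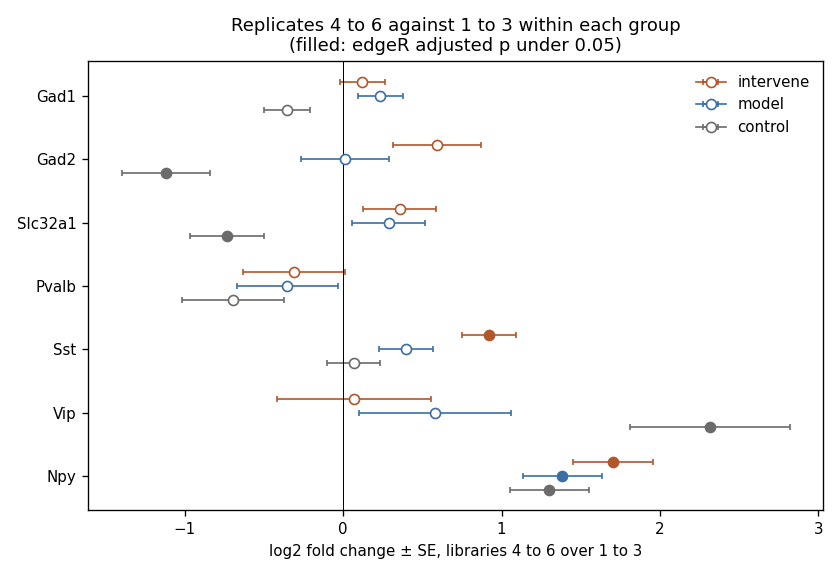
Log2 fold changes with standard errors of libraries 4 to 6 against 1 to 3 within intervene, model and control; filled points have an edgeR adjusted p under 0.05. Npy is filled in the 3 groups, Sst in intervene, and Gad2, Slc32a1 and Vip in control.

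Markers of other neurons differed along the same division as the members. Of all genes, 18.6% were called higher and 19.6% lower in controls 4 to 6 against 1 to 3. The shares were 8.91% higher and 9.78% lower in model libraries, and 7.76% higher and 7.16% lower in intervene libraries. In controls, 6 of 8 cortical and hippocampal excitatory markers were higher in libraries 4 to 6 and 0 lower, and their summed level was 2105 to 2257 CPM in controls 4 to 6, against 98.5 to 885 CPM in controls 1 to 3. In model libraries the summed level was 1516 to 1668 CPM in 4 to 6, against 613 to 1229 CPM in 1 to 3, and in intervene libraries 722 to 1451 CPM in 4 to 6, against 395 to 983 CPM in 1 to 3. Striatal projection neurons, which are GABAergic, left a different pattern. Of their 10 markers 9 were higher in model libraries 4 to 6, with a summed level of 1091 to 2487 CPM, against 209 to 300.2 CPM in model libraries 1 to 3. In controls 0 of 10 passed, the sums being 768 to 1019 CPM in 4 to 6 and 218 to 1596 CPM in 1 to 3, and in intervene 1 of 10 was higher, at 706 to 1599 CPM in 4 to 6 against 178 to 497 CPM in 1 to 3. Hypothalamic markers, of a region that also makes Vip, Npy and Sst, were lower in controls 4 to 6 for 9 of 10, with a sum of 5.58 to 6.49 CPM in controls 4 to 6 against 277 to 1137 CPM in controls 1 to 3. None of these markers was at 0 in all libraries of such a group. The part of these markers in the levels of the members was not tested.

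**Figure D5:**
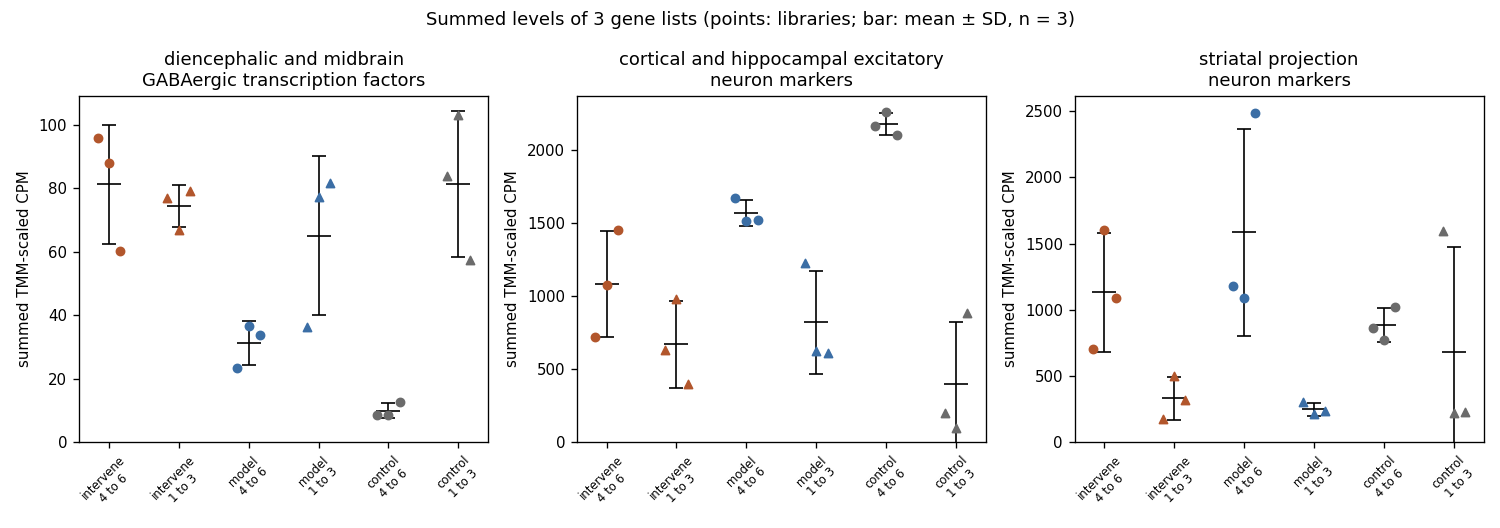
Summed TMM-scaled CPM per library of 9 transcription factors of diencephalic and midbrain GABAergic neurons, 8 cortical and hippocampal excitatory neuron markers and 10 striatal projection neuron markers, with 1 point per library and bars at mean ± SD of 3. Controls 4 to 6 lie lowest in the first list and highest in the second.

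Within libraries 4 to 6, intervene and control differed in 4 of the 7 genes. Gad2 averaged 216 ± 56.3 CPM in intervene and 104.6 ± 3.95 CPM in control libraries (SD, n = 3 each), and Slc32a1 133 ± 33.0 CPM in intervene and 80.8 ± 1.22 CPM in control libraries. Every intervene library 4 to 6 lay above every control library 4 to 6 in both genes, at 163 CPM or more for Gad2 and 109 CPM or more for Slc32a1. The log2 fold changes were 1.05 ± 0.28 for Gad2 and 0.72 ± 0.23 for Slc32a1, with edgeR adjusted p = 0.0139 and 0.0317. Sst was also higher, at 453 ± 77.7 CPM in intervene and 320.3 ± 40.8 CPM in control libraries (log2 fold change 0.50 ± 0.17, adjusted p = 0.0379). Vip was lower, with 23.6, 10.7 and 28.4 CPM in intervene libraries 4 to 6 against 66.8, 58.4 and 43.4 CPM in controls 4 to 6 (log2 fold change -1.43 ± 0.49, adjusted p = 0.0449). The calls were 3 higher and 1 lower of 7, beside 25.9% of all genes, 14.7% higher and 11.2% lower, and the 4 without overlap beside 42.3%.

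Gad1, Pvalb and Npy did not pass in that comparison. Gad1 averaged 370.1 ± 44.5 CPM in intervene and 302 ± 34.2 CPM in control libraries 4 to 6 (log2 fold change 0.29 ± 0.14, adjusted p = 0.143). Pvalb averaged 182 ± 54.0 CPM in intervene and 122 ± 31.5 CPM in control libraries, and Npy 159 ± 54.0 CPM in intervene and 153 ± 15.7 CPM in control libraries. The calls rest on few libraries and on the filter and scaling. Without the filter on low counts 0 of the 4 passed, and a fit with the replicate number as a block ended the calls of Slc32a1 and Vip. Library totals in place of TMM factors, and limma on log2(FPKM + 1), each ended those of Slc32a1 and Sst. Gad2 lost its call without intervene replicate 5, Slc32a1 without control replicate 4, 5 or 6 or intervene replicate 5, and Sst without control replicate 4 or 5 or intervene replicate 4 or 6. Vip lost it in 12 of the 18 omissions of a library, among them control replicates 4 and 5 and each intervene replicate from 3 to 6. Thalamic relay markers moved along: 9 of 9 were higher in intervene than in control within libraries 4 to 6 (median log2 fold change 2.23, against 0.00 over all genes). The share of all genes called higher there was 14.7%. Hypothalamic markers were higher for 8 of 10, with a sum of 83.7 to 1481 CPM in intervene against 5.58 to 6.49 CPM in control libraries 4 to 6. The part of these markers in the differences of the members was not tested.

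Within libraries 1 to 3 no member was called, and the directions differed. Gad2 averaged 143 ± 26.1 CPM in intervene and 227 ± 108 CPM in control libraries 1 to 3 (log2 fold change -0.66 ± 0.28, edgeR adjusted p = 0.532). Vip averaged 19.9 ± 8.18 CPM in intervene and 11.4 ± 7.16 CPM in control libraries 1 to 3 (log2 fold change 0.82 ± 0.49, adjusted p = 0.676). Here 0% of all genes were called, 1579 genes and 1 member had an unadjusted p under 0.05, and DESeq2 called 44 genes, none of them a member. Sst was the member without overlap, at 188 to 273 CPM in intervene against 287 to 329 CPM in control libraries 1 to 3, beside 13.7% of all genes.

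The change of intervene against control was tested for a difference between the libraries 4 to 6 and 1 to 3. The difference of the log2 fold changes was 1.71 ± 0.39 for Gad2, 1.09 ± 0.33 for Slc32a1, 0.86 ± 0.24 for Sst and -2.25 ± 0.69 for Vip. The edgeR adjusted p were 0.00986, 0.0317, 0.0216 and 0.0388, and 4 of 7 members passed where 17.9% of all genes did. Gad2 kept this call in 25 of 25 alternatives. Slc32a1 lost it in 12 of 25, among them the omission of control replicate 1, 2, 4, 5 or 6 or of intervene replicate 1, 2 or 5. Sst lost it without control replicate 4 or 5 or intervene replicate 6, and Vip in 11 of 25, among them without control replicate 1, 3, 4 or 5. Control libraries enter both terms, so the low Gad2 and high Vip of controls 4 to 6 are the same values described above. The same test called 0 of 7 members in intervene against model, where 0.352% of all genes passed, and in model against control, where 0% did; 1 and 4 members had an unadjusted p under 0.05, and DESeq2 called 673 and 200 genes.

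Model and control within libraries 4 to 6 showed shifts of the same sign as intervene and control there, which share the control libraries, but none passed. Gad1 had 359, 447 and 366 CPM in model libraries 4 to 6, against 313, 329 and 264 CPM in controls 4 to 6. Gad2 averaged 163 ± 33.4 CPM in model and 104.6 ± 3.95 CPM in control libraries, and Slc32a1 122 ± 16.6 CPM in model and 80.8 ± 1.22 CPM in control libraries. The model libraries lay above the controls in each of these 3 genes and below them in Vip, so that 4 of 7 did not overlap, where 19.8% of all genes did not. The log2 fold changes were 0.37 ± 0.14, 0.64 ± 0.28 and 0.59 ± 0.23, with edgeR adjusted p = 0.401, 0.470 and 0.410, and 0% of all genes were called. At an unadjusted p under 0.05 there were 3 members and 1876 genes, and DESeq2 called 221 genes, none of them a member. In a fit of these 6 libraries alone Gad2 and Slc32a1 passed. Model and control within libraries 1 to 3 gave 0 calls among members and 0% of all genes (1075 genes and 1 member at an unadjusted p under 0.05, and 0 of 7 without overlap beside 9.93% of genes), with log2 fold changes of -0.49 ± 0.28 for Gad2 and 1.12 ± 0.49 for Vip.

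Intervene against model gave no call among the members in any division of the libraries. Within libraries 4 to 6 Sst averaged 453 ± 77.7 CPM in intervene and 358 ± 50.2 CPM in model libraries (log2 fold change 0.34 ± 0.17, edgeR adjusted p = 0.236). Vip averaged 20.9 ± 9.16 CPM in intervene and 36.6 ± 5.25 CPM in model libraries (log2 fold change -0.81 ± 0.48, adjusted p = 0.335), and it was the member without overlap, beside 28% of all genes. In this comparison 5.71% of all genes were called and 0 of 7 members. DESeq2 called 1880 genes and limma-voom 928, and none was a member, as was none at an unadjusted p under 0.05. Within libraries 1 to 3 there were 0 calls among the members and 0% of all genes, with 700 genes and 0 members at an unadjusted p under 0.05, and 0 of 7 members without overlap beside 8.52% of genes.

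Ratios of FPKM within a library do not depend on how libraries are scaled. The ratio of Gad2 to Gad1 was 0.21, 0.214 and 0.252 in controls 4 to 6, against 0.459, 0.378 and 0.266 in controls 1 to 3. The ratio of Vip to Gad1 was 0.734, 0.611 and 0.567 in controls 4 to 6, against 0.033, 0.199 and 0.109 in controls 1 to 3. In intervene libraries Vip to Gad1 was 0.203 ± 0.106 in 4 to 6 and 0.201 ± 0.0809 in 1 to 3 (SD, n = 3 each). Relative to Gad1, Gad2 and Vip thus differed between controls 4 to 6 and 1 to 3 in the same direction as their levels. Vip relative to Gad1 was level in intervene. Ratios were not tested between the divisions. Over all libraries of a group, 0 of 18 comparisons of a log2 ratio to Gad1 passed a two-sided exact permutation test, with a lowest p of 0.154 for Vip in intervene against model and adjusted p = 0.989.

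Gad1, Gad2 and Slc32a1 varied together across libraries. Among 13563 genes ranked by the Pearson correlation of log2 CPM over 18 libraries, Slc32a1 was nearest to Gad2 and Gad2 nearest to Slc32a1 (r = 0.929). Nearest to Gad1 were Gad2 (0.836) and Slc32a1 (0.832). After subtraction of the mean of each group and replicate division, Gad2 and Slc32a1 were still nearest to each other at 0.929, and Gad2 was nearest to Gad1 at 0.871. These correlations are descriptive, since the 18 libraries share their groups, divisions and dissections. Next after Slc32a1, Gad2 was nearest to Whrn (0.928) and to Sox1 (0.913), a transcription factor of neural progenitors, and Slc32a1 had Abat (0.879), which breaks GABA down, among its nearest 5.

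The peptide genes and Pvalb had other neighbours. Vip was nearest to Dpp4 (0.937), Sowahb (0.930) and Plxdc1 (0.927), Npy to Kat2a (0.972), Mras and Aldoa (0.965 each), Sst to Mrps31 (0.906) and Ttll1 (0.883), and Pvalb to Mxra7 (0.897) and Mrpl46 (0.865). None of the 7 members was among the 5 nearest genes of Pvalb, Sst, Vip or Npy. By this measure Vip ran against the genes that make and store GABA, at -0.548 with Gad1, -0.717 with Gad2 and -0.551 with Slc32a1. The correlations of Pvalb, Sst and Npy with the same genes lay between -0.215 and 0.199.

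Within each division, the 9 libraries of the 3 groups kept Gad2 and Slc32a1 together. They had r = 0.962 and rho = 0.967 in libraries 4 to 6 (exact permutation p = 0.000176 and 0.000165, adjusted p = 0.00370 and 0.00347 over 42 tests). In libraries 1 to 3 they had r = 0.915 and rho = 0.917 (exact permutation p = 0.000612 and 0.00131, adjusted p = 0.00857 and 0.0170). Without the 2 libraries farthest from the median of Gad2, r was 0.976 and 0.808, so the relation did not rest on those libraries. The grouping with Gad1 was less steady. In libraries 4 to 6 Gad1 had r = 0.812 with Gad2 and 0.868 with Slc32a1 (exact permutation p = 0.00707 and 0.00336, adjusted p = 0.0495 and 0.0282), and rho = 0.783 and 0.900 (exact permutation p = 0.0172 and 0.00203, adjusted p = 0.103 and 0.0170). Without the 2 libraries farthest from the median of Gad1, r was 0.863 and 0.937 there. In libraries 1 to 3 r was 0.895 with Gad2 and 0.795 with Slc32a1 (exact permutation p = 0.0113 and 0.00833, adjusted p = 0.0594 and 0.04998), and rho = 0.717 and 0.700 (exact permutation p = 0.0369 and 0.0433, adjusted p = 0.194 and 0.202). Without 2 libraries r was 0.355 and 0.320 there, so in libraries 1 to 3 the relations with Gad1 rest on those libraries. Gad2 and Vip ran against each other in libraries 4 to 6, with r = -0.928 and rho = -0.967 (exact permutation p = 0.000127 and 0.000165, adjusted p = 0.00370 and 0.00347) and r = -0.861 without 2 libraries. In libraries 1 to 3 that relation had r = -0.622 and rho = -0.267 (exact permutation p = 0.0810 and 0.493, adjusted p = 0.309 and 0.740) and r = -0.127 without 2 libraries, so it did not hold there. The 9 libraries include the 3 groups, so these values contain the differences between groups given above.

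Genes that remove GABA followed Gad2 and Slc32a1 in part. In controls 4 to 6 against 1 to 3, 3 of 6 genes of GABA uptake and breakdown were lower and 0 higher (median log2 fold change -0.59, against -0.02 over all genes). Over all genes, 19.6% were lower and 18.6% higher there, and 14.7% higher and 11.2% lower in intervene against control within libraries 4 to 6. Slc6a11, a GABA transporter found mainly on astrocytes, averaged 99.9 ± 6.78 CPM in controls 4 to 6 and 431 ± 98.6 CPM in controls 1 to 3 (log2 fold change -2.11 ± 0.34, edgeR adjusted p = 0.000383). Abat, the GABA transaminase, averaged 214 ± 13.6 CPM in controls 4 to 6 and 342 ± 82.3 CPM in controls 1 to 3 (log2 fold change -0.68 ± 0.18, adjusted p = 0.00664). In intervene against control within libraries 4 to 6, 2 of 6 were higher and 0 lower, and these were Slc6a11 (309 ± 130 CPM in intervene, 99.9 ± 6.78 CPM in control) and Abat (327 ± 59.1 CPM in intervene, 214 ± 13.6 CPM in control). Astrocyte markers moved along: 3 of 5 were higher and 0 lower in intervene than in control within libraries 4 to 6, with a summed level of 1411 to 1718 CPM in intervene against 781 to 922 CPM in control libraries. In controls 4 to 6 against 1 to 3, 3 of 5 were lower and 0 higher, and the sum in controls 1 to 3 was 1124 to 1238 CPM. None of the 5 was at 0 in a control library. The part of these markers in the level of Slc6a11 was not tested.

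Transcription factors that specify GABAergic neurons of different brain regions moved in different ways. Of all genes, 18.6% were called higher and 19.6% lower in controls 4 to 6 against 1 to 3. The shares were 14.7% higher and 11.2% lower in intervene against control within libraries 4 to 6. Of 9 factors of diencephalic and midbrain GABAergic neurons, 8 were lower and 0 higher in controls 4 to 6 than in controls 1 to 3, with a median log2 fold change of -4.69 against -0.02 over all genes. Six3, a homeodomain factor, had 5.44 ± 2.02 CPM in controls 4 to 6 and 33.6 ± 13.3 CPM in controls 1 to 3 (log2 fold change -2.64 ± 0.37, edgeR adjusted p = 0.000144), and Otx2 had 0.111 ± 0.192 CPM in controls 4 to 6 and 8.97 ± 1.67 CPM in controls 1 to 3. Gata3 and Sox14 had 0 counts in all 3 controls 4 to 6, and the median was the same with both set to a bound of 3 counts per library. In intervene against control within libraries 4 to 6, 6 of 9 were higher and 0 lower (median 4.18, or 3.19 at that bound), with Six3 at 53.4 ± 12.4 CPM in intervene libraries. The summed level of the 9 factors was 60.1 to 95.8 CPM in intervene libraries 4 to 6, 23.3 to 36.5 in model libraries 4 to 6 and 8.40 to 12.7 CPM in controls 4 to 6. In libraries 1 to 3 it was 66.8 to 79.2 CPM in intervene, 36.2 to 81.7 in model and 57.3 to 103 CPM in control. Of 5 genes of the reticular nucleus, which include Six3 and Isl1 of that list, 1 was higher and 4 lower in controls 4 to 6 against 1 to 3, and 3 were higher and 1 lower in intervene against control within libraries 4 to 6.

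For factors of forebrain GABAergic neurons the shares called in controls were near those of all genes. Among 17, 3 were higher and 4 lower in controls 4 to 6 than in controls 1 to 3 (median log2 fold change -0.35), where 18.6% of all genes were higher and 19.6% lower. Satb1 and Maf were among the higher ones, with Satb1 at 91.2 ± 15.9 CPM in controls 4 to 6 and 34.2 ± 8.77 CPM in controls 1 to 3 (adjusted p = 0.00160 by edgeR). Nr2f2 was lower, at 8.65 ± 0.869 CPM in controls 4 to 6 and 47.7 ± 12.96 CPM in controls 1 to 3 (adjusted p = 0.000129). In intervene libraries 5 of 17 were higher in 4 to 6 than in 1 to 3 and 0 lower (median 1.20, against -0.01 over all genes), among them Dlx1, Dlx2 and Dlx5 of ventral forebrain. Beside these, 7.76% of all genes were higher and 7.16% lower. Dlx5 averaged 17.0 ± 8.40 CPM in intervene libraries 4 to 6 and 2.84 ± 2.14 CPM in intervene libraries 1 to 3 (edgeR adjusted p = 0.0147). In intervene against control within libraries 4 to 6, 4 of 17 were higher and 1 lower, where 14.7% of all genes were higher and 11.2% lower.

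Genes of other interneuron classes were called about as often as genes at large. Of 22 genes, 5 were higher and 6 lower in controls 4 to 6 against 1 to 3, where 18.6% of all genes were higher and 19.6% lower. In intervene against control within libraries 4 to 6, 4 were higher and 1 lower, where 14.7% of all genes were higher and 11.2% lower. Calb2, calretinin, which also marks midline thalamic neurons, averaged 21.8 ± 10.03 CPM in controls 4 to 6 and 367 ± 83.4 CPM in controls 1 to 3 (log2 fold change -4.07 ± 0.49, edgeR adjusted p = 6.27e-05). It averaged 246 ± 74.0 CPM in intervene libraries 4 to 6 (log2 fold change against control 3.49 ± 0.48, adjusted p = 0.000347). Cnr1, the cannabinoid receptor carried by cholecystokinin interneurons and by many other neurons, was the opposite: 74.7 ± 9.68 CPM in intervene and 119 ± 15.9 CPM in control libraries 4 to 6 (log2 fold change -0.67 ± 0.18, adjusted p = 0.0134). In controls 1 to 3 Cnr1 averaged 61.7 ± 10.7 CPM.

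Receptors for the 3 peptides were also called, in both directions. Of 10 receptors for somatostatin, VIP and neuropeptide Y, 4 were higher and 3 lower in controls 4 to 6 against 1 to 3. There 18.6% of all genes were higher and 19.6% lower. In intervene against control within libraries 4 to 6, 3 were higher and 4 lower, where 14.7% of all genes were higher and 11.2% lower. Npy2r, a receptor that restrains transmitter release, averaged 11.9 ± 1.52 CPM in intervene and 2.14 ± 0.441 CPM in control libraries 4 to 6 (log2 fold change 2.46 ± 0.49, edgeR adjusted p = 0.00260). Sstr1 averaged 10.3 ± 3.66 CPM in intervene and 23.2 ± 2.08 CPM in control libraries 4 to 6 (-1.18 ± 0.27, adjusted p = 0.00572), and Sstr3 12.8 ± 2.79 CPM in intervene and 22.9 ± 0.687 CPM in control libraries (-0.85 ± 0.19, adjusted p = 0.00428). Sstr5 averaged 1.33 ± 0.831 CPM in intervene and 0.178 ± 0.138 CPM in control libraries 4 to 6. The receptors called thus did not share a direction.

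Counting both directions together, genes of the receiving side of GABAergic synapses were called no more often than genes at large. Of 9 genes of the inhibitory postsynapse, 1 was higher and 0 lower in controls 4 to 6 against 1 to 3. There 18.6% of all genes were called higher and 19.6% lower. In intervene against control within libraries 4 to 6, 0 were higher and 2 lower, where 14.7% of all genes were called higher and 11.2% lower. The 2 were Slc12a5, the neuronal potassium-chloride cotransporter, at 208 ± 34.0 CPM in intervene and 314 ± 17.8 CPM in control libraries 4 to 6 (log2 fold change -0.60 ± 0.13, edgeR adjusted p = 0.00276), and Nlgn2, the neuroligin of inhibitory synapses, at 151 ± 21.3 CPM in intervene and 202 ± 6.36 CPM in control libraries (-0.42 ± 0.10, adjusted p = 0.00733). General neuron markers went the same way: their summed level was 5829 to 7083 CPM in intervene and 8292 to 8979 CPM in control libraries 4 to 6, with 0 of 8 higher and 2 of 8 lower. Gphn, gephyrin, the scaffold of these synapses, averaged 73.1 ± 1.12 CPM in intervene and 73.2 ± 3.06 CPM in control libraries 4 to 6. Over all libraries, 0 genes of these lists were called in intervene against control, where 0% of all 18452 genes were called.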

How the data were processed

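Polyadenylated RNA of thalamus tissue was sequenced in 18 libraries. The authors deposited raw counts and FPKM for 50559 genes; HISAT2, featureCounts and GRCm39 are named per the submitters' processing notes, with versions and strand setting not given in the sources used here. FPKM as deposited equal counts divided by a fixed gene length and the library total for 18117 of 18117 genes counted in every library (relative tolerance 1e-06). Antisense transcripts could add counts without strand: Gad1os had at most 0.161% of the counts of Gad1.

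Counts were tested with the quasi-likelihood F test of edgeR 4.0.16 in R 4.3.3 with TMM scaling after filterByExpr, first with 3 group means and then with 6 means, of each group and replicate division (1 to 3, 4 to 6). P-values were adjusted by Benjamini-Hochberg over 18452 genes with a threshold of 0.05. Alternatives used limma 3.58.1, DESeq2 1.42.0, other scaling and filters, and the omission of each library. Ratios and pair correlations used exact permutation tests, and the 42 pair correlations were added after the data were seen. The tests were checked on counts simulated with known fold changes in some genes and a common mean over all libraries in the others. Those counts held no replicate division across genes at large. The check therefore does not show how the real division affects the fits over all libraries. Any 2 libraries of a group differed with a chi-square of at least 11.4 per degree of freedom, so no library repeated another of its group. Libraries of different groups were not compared in this way. No column was without a sample.

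The members, the lists and the division by replicate number were chosen with earlier results of these data known. Named were the 7 members, up to 4 genes of lowest p per list, and the 5 genes nearest to each member by correlation, of which some are printed; further list genes (Gphn, Sox14, Gata3) were named after their values were seen. Six3 and Isl1 are in 2 lists. Some list genes are counted but not reported here by name.

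Deviations from the group mean of same-numbered model and control libraries correlated at 0.18 to 0.63, over 0.1 in 6 of 6 pairs. Such deviations contain the replicate division that both groups share. Within the divisions the correlations were -0.18 to 0.24, over 0.1 in 3 of 6 pairs, so a pairing by number was not shown. For intervene against model and against control, 5 of 6 and 3 of 6 pairs were over 0.1 in deviations from the group mean. The block on replicate number changed no member call in model against control. Promoters were read from RefSeq on GRCm38.p6, matched by symbol for 7 of 7 genes, and each motif was searched on both strands.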

Additional observations from a re-analysis of the deposited data

Results flagged for a closer look

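In control libraries replicate 1 was the highest for Gad1, with a gap to the next library of 0.658 of the group's range, and for Gad2, with a gap of 0.634; Pvalb in model replicate 5 was the lowest of its group, with a gap of 0.686. Chance gives such a gap in about 1 in 20 groups, and 21 groups were screened. Control replicate 1 had 490 CPM of Gad1 and 348 CPM of Gad2, and model replicate 5 had 81.5 CPM of Pvalb. Control replicate 1 was also the deepest library and had the highest summed striatal markers of the controls, at 1596 CPM; their part in these levels was not tested.

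For 4 members the change of intervene against control differed between libraries 4 to 6 and libraries 1 to 3 by an interaction test in edgeR: Gad2 by 1.71, Slc32a1 by 1.09, Sst by 0.86 and Vip by -2.25 on the log2 scale. For Gad2, Slc32a1 and Sst the levels of intervene were above control in libraries 4 to 6 and below it in libraries 1 to 3, and for Vip the opposite.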

How the results depend on the processing

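Of 15 called results on members, 379 alternatives kept 315 calls and lost 64, and none turned its direction; of 2330 alternatives to 90 uncalled results, 7 passed and 101 changed sign without passing. Levels moved by less than the spread between libraries in 84 of 84 alternatives. Called in 25 of 25 alternatives each were Gad2 in the difference between divisions of intervene against control, Gad2, Vip and Npy in controls, Npy in model, and Sst and Npy in intervene.

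In intervene against control within libraries 4 to 6, the 4 called members became 2 with library totals (Gad2, Vip), 0 without a filter on low counts, 2 with a replicate block (Gad2, Sst) and 2 with limma on log2(FPKM + 1) (Gad2, Vip). Leaving out a library gave 1 to 4: 1 without control replicate 4 or 5 or intervene replicate 5, and 2 without intervene replicate 4 or 6. For the difference between divisions, the 4 became 2 without a filter and 2 with the replicate block (Gad2, Sst in both), and 1 to 4 when a library was left out: 1 without control replicate 4 or 5 and 2 without control replicate 1 or intervene replicate 1 or 5. In model against control within libraries 4 to 6, 2 passed in place of 0 with the libraries of the comparison alone. The block changed no other count of member calls. The cause of these changes was not tested.

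Gene counts moved too. Intervene against control over all libraries had 0 genes, 59 higher and 7 lower with the division as a term, and 66 and 7 with DESeq2. Model against control within libraries 4 to 6 had 0, 175 and 84 with its libraries alone, and 198 and 23 with DESeq2. Intervene against control within libraries 4 to 6 had 2713 higher and 2063 lower, 2136 and 2449 with library totals, and 1656 and 2582 on FPKM. Libraries 4 to 6 against 1 to 3 in intervene had 1431 higher and 1321 lower, 797 and 1594 with library totals, and 620 and 414 with its libraries alone. Each division held 3 libraries, and no member had fewer than 298 counts in a library.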
